A study of Mus musculus with 6 samples.

Results

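The enzymes that make NAD, recycle it and phosphorylate it to NADP were followed in mouse 3T3 cells, an immortalised fibroblast line, that carried either a construct to overexpress NNMT (nicotinamide N-methyltransferase) or a control construct. They are the 10 genes Nampt, Nmrk1, Naprt, Qprt, Nmnat1, Nmnat2, Nmnat3, Nadsyn1, Nadk and Nadk2, taken by name from the 35275 rows of the deposited expression table, and all 10 have a row. RNA was sequenced from 3 NNMT libraries and 3 control libraries. Both groups had grown for 48 h in DMEM with 10 µM methionine and 10% dialyzed serum, and the study asked which genes are regulated differently once NNMT is raised. The sources used here give neither the promoter and species of the construct nor whether each group is a single transduced population. The p-values measure only the spread between these libraries, and a difference between the starting populations cannot be told apart from an effect of NNMT.

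NNMT methylates nicotinamide, which removes it from the pool that cells recycle to NAD. In the salvage route, NAMPT joins nicotinamide to phosphoribosyl pyrophosphate to give nicotinamide mononucleotide, and this is held to be the rate-limiting step of NAD supply in most mammalian cells. Nicotinamide riboside enters the same route through the kinase NMRK1, nicotinic acid enters through NAPRT in the Preiss-Handler route, and quinolinate made from tryptophan enters through QPRT. All routes pass through an enzyme of the NMNAT family, the acid routes need NADSYN1 for a last amidation, and NAD kinases make NADP.

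Nampt and the kinases Nadk and Nadk2 were lower in NNMT cells, and the alternative entry enzymes Naprt and Nmrk1 and the isozymes Nmnat3 and Nmnat2 were higher. The groups overlapped for Nmnat2, which missed the threshold in 7 of 16 alternative fits, and Nadk2 missed it in 1 of 16. The changes were modest, from 1.13-fold to 1.91-fold. Nmnat1 and Nadsyn1 did not pass the test, and Qprt had a value of 0 in each of the 6 libraries. Calls rest on limma at a Benjamini-Hochberg adjusted p under 0.05 over the 10882 genes that averaged 1 FPKM or more (reads scaled to gene length and library size). Of the 10 enzymes, 9 reached this level, and of these 4 were higher and 3 were lower. Among those called higher, Nmnat3 averaged 0.960 FPKM in control cells and reached the level only through the NNMT libraries. Over all genes tested 65.6% were called, 35.0% higher and 30.6% lower, so that the count of 7 enzymes is close to the background and says nothing particular to them. The median log2 fold change of the 9 was 0.06, against 0.03 over all genes tested, and the median size of the change was 0.41, against 0.24.

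Nnmt itself averaged 16.3 ± 1.70 FPKM in NNMT cells and 6.45 ± 1.18 FPKM in control cells (SD, n = 3 each), in the direction of the labels. This rise was 2.53-fold, and 2.4% of all genes tested changed by more in either direction. How far reads of the construct count toward the value of the mouse gene is not known. Each library held 31620258 to 39980003 reads recovered from the values, and 1 read on 1 kb was worth 0.025 to 0.0316 FPKM. Across genes, libraries correlated at r = 0.995 to 0.998 within a group and at 0.956 to 0.964 between the groups. All 9 fibroblast markers examined were above 1 FPKM on average, whereas Epcam, Krt18, Cd3e, Myod1, Myog and Adipoq, markers of other cell types, were listed at 0. The fibroblast markers differed between the groups in both directions. Col1a1 (3620 ± 359 FPKM in NNMT cells and 1820 ± 93.2 FPKM in control cells), Col1a2, Col3a1, Pdgfrb and Fn1 averaged higher in NNMT cells. Thy1 (120 ± 5.22 FPKM in NNMT cells and 257 ± 18.8 FPKM in control cells), Vim and S100a4 averaged lower, and Pdgfra was similar. Among the markers of other types examined, Cd68 (1.40 ± 0.334 FPKM in NNMT cells and 1.80 ± 0.285 FPKM in control cells) and Tubb3 alone averaged above 1 FPKM. Levels below are FPKM, folds divide group mean FPKM, and each log2 fold change sets NNMT cells over control cells on log2(FPKM + 1). That scale makes the change of weakly expressed genes look smaller.

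Promoter sequences are shown for the enzymes that kept their call in every alternative fit in which they were tested and for which the RefSeq table has an entry. Each window runs from 250 bases before to 50 after a RefSeq transcript start on GRCm38.p6, 5′ to 3′ on the gene's strand. Capitals mark the GC box GGGCGG, the core letters bound by SP1-class factors, and the E-box CACGTG, bound by MYC and CLOCK families, both searched on both strands. The Nampt window is chr12:32820085-32820384 on the plus strand, that of Nmrk1 is chr19:18631766-18632065 on the plus strand and that of Nmnat3 is chr9:98296320-98296619 on the plus strand. The Nampt and Nmnat3 windows lie inside the genes, downstream of the annotated 5′ ends at 32819545 and 98287435. For Nadk the table gives a start at the annotated 5′ end of the gene, in chr4:155562131-155562430, and a second in chr4:155563565-155563864, both on the plus strand.
Nampt: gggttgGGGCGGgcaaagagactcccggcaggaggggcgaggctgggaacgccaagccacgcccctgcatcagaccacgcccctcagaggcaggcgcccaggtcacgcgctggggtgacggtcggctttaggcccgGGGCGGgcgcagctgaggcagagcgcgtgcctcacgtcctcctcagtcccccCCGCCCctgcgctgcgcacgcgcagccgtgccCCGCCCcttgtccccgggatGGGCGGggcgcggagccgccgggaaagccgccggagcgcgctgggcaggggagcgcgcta
Nmrk1: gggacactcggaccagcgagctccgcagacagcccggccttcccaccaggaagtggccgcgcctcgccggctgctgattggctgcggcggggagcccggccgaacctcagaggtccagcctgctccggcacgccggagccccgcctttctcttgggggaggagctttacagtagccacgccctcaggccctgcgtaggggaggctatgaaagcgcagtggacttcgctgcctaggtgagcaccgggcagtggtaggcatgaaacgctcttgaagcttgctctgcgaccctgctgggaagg
Nmnat3: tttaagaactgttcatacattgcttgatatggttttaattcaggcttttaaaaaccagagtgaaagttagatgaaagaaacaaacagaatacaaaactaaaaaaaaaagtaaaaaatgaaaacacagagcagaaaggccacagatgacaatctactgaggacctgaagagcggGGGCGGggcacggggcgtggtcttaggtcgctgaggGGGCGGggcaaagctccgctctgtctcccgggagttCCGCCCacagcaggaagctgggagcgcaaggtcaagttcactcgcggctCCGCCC
Nadk, first start: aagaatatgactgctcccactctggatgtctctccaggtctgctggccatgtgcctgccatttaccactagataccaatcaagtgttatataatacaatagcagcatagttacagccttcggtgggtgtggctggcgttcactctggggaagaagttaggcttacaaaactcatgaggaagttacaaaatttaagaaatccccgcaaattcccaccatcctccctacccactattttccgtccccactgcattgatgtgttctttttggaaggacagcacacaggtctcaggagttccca
Nadk, second start: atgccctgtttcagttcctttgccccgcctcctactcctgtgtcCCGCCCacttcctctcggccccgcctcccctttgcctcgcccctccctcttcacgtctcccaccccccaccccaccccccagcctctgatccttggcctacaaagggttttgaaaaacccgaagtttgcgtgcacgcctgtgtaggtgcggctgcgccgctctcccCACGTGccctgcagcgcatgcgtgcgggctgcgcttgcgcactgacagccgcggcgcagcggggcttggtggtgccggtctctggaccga

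The GC box had 5 matches in the window of Nampt, a gene lower in NNMT cells, and 4 in that of Nmnat3, a gene higher in NNMT cells. The Nmrk1 window and the first Nadk window held none. The second Nadk window held 1 GC box and 1 E-box. Of all 32851 RefSeq windows of this length, 35.7% hold the GC box and 7.15% the E-box. These are letters in a window and not bound sites, and the gene-level values do not say which Nadk start was used.

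Of the entry enzymes, Nampt (ENSMUSG00000020572, chromosome 12, 32819545 to 32853349 in GRCm38) was the most abundant in both groups and the one that fell. Its level was 9.33 FPKM in the NNMT column without a replicate number (here the unnumbered NNMT library), 11.2 in NNMT replicate 2 and 10.8 in NNMT replicate 3, against 13.6, 14.3 and 15.3 in control replicates 1, 2 and 3. Every NNMT library lay below every control library, by a gap wider than the range of either group. The means were 10.4 ± 0.995 FPKM in NNMT cells and 14.4 ± 0.863 FPKM in control cells, 1.38-fold lower, with a log2 fold change of -0.43 (SE 0.071, limma adjusted p = 0.000359). They rest on 5281 reads in NNMT cells and 6845 in control cells, so that counting error is near 2.38% per NNMT library and 2.09% per control library. Of all genes tested, 24.6% changed by more than Nampt in either direction.

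Naprt, on chromosome 15 (75890956 to 75894481), converts nicotinic acid, a precursor that NNMT does not use. Its levels were 2.25, 1.95 and 2.42 FPKM in the unnumbered library and replicates 2 and 3 of the NNMT group and 0.964, 1.18 and 1.32 FPKM in control replicates 1, 2 and 3. Here the NNMT libraries were all above the controls. Naprt averaged 2.20 ± 0.238 FPKM in NNMT cells and 1.16 ± 0.180 FPKM in control cells, a 1.91-fold difference and the largest fold among the 9 enzymes tested (log2 fold change 0.57, SE 0.087, limma adjusted p = 0.00022). It rests on 466 reads in NNMT cells and 228 in control cells. The gene shares 277 bases of its span with the neighbouring translation factor gene Eef1d on the same strand, which stood at 135 ± 6.70 FPKM in NNMT cells and 132 ± 5.10 FPKM in control cells (limma adjusted p = 0.548). How reads in the shared stretch were counted is not known, and their part in the Naprt value was not tested.

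Nmrk1 (chromosome 19, 18631950 to 18652428), the kinase for nicotinamide riboside, was also higher. The 3 NNMT libraries held 3.88, 3.43 and 4.40 FPKM, against 2.60, 2.18 and 2.92 FPKM in the control libraries. The groups did not overlap, although the gap from the lowest NNMT library to the highest control library was small. The means were 3.91 ± 0.486 FPKM in NNMT cells and 2.57 ± 0.372 FPKM in control cells, 1.52-fold higher (log2 fold change 0.46, SE 0.095, limma adjusted p = 0.00161). Nmrk2, the related kinase of muscle, had 0 reads in the NNMT libraries and 1 in the control libraries. Qprt (chromosome 7, 127107114 to 127122226), the entry enzyme of the de novo route, had 0 reads in both groups. The limit for Qprt takes 3 reads per group as what a count of 0 allows, at the longest annotated transcript of 2050 bases. At that length its level was at most 0.0131 FPKM in NNMT cells and 0.0140 FPKM in control cells, for counting error only. A shorter transcript would give a higher limit.

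The proportions of the entry enzymes within a library follow from these levels and are given as a description. The Naprt level was 0.241, 0.173 and 0.225 of the Nampt level in the NNMT libraries, against 0.0708, 0.0827 and 0.0861 in the control libraries. The log2 difference was 1.41, taken on FPKM without the added 1, as for the ratios given below. Since Naprt was higher and Nampt lower in every NNMT library, that the ratios do not overlap was fixed by the single levels, and it adds no support. Nampt made up 63.1 ± 3.98% of the summed FPKM of Nampt, Naprt, Nmrk1 and Qprt in NNMT cells and 79.5 ± 1.33% in control cells (SD, n = 3 each). Nmrk1 held 23.6 ± 2.55% in NNMT cells and 14.1 ± 1.55% in control cells, and Naprt held 13.3 ± 1.46% in NNMT cells and 6.35 ± 0.641% in control cells. These shares were computed after the single levels were seen, describe transcripts and not enzyme activity, and were not tested.

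**Figure D1:**
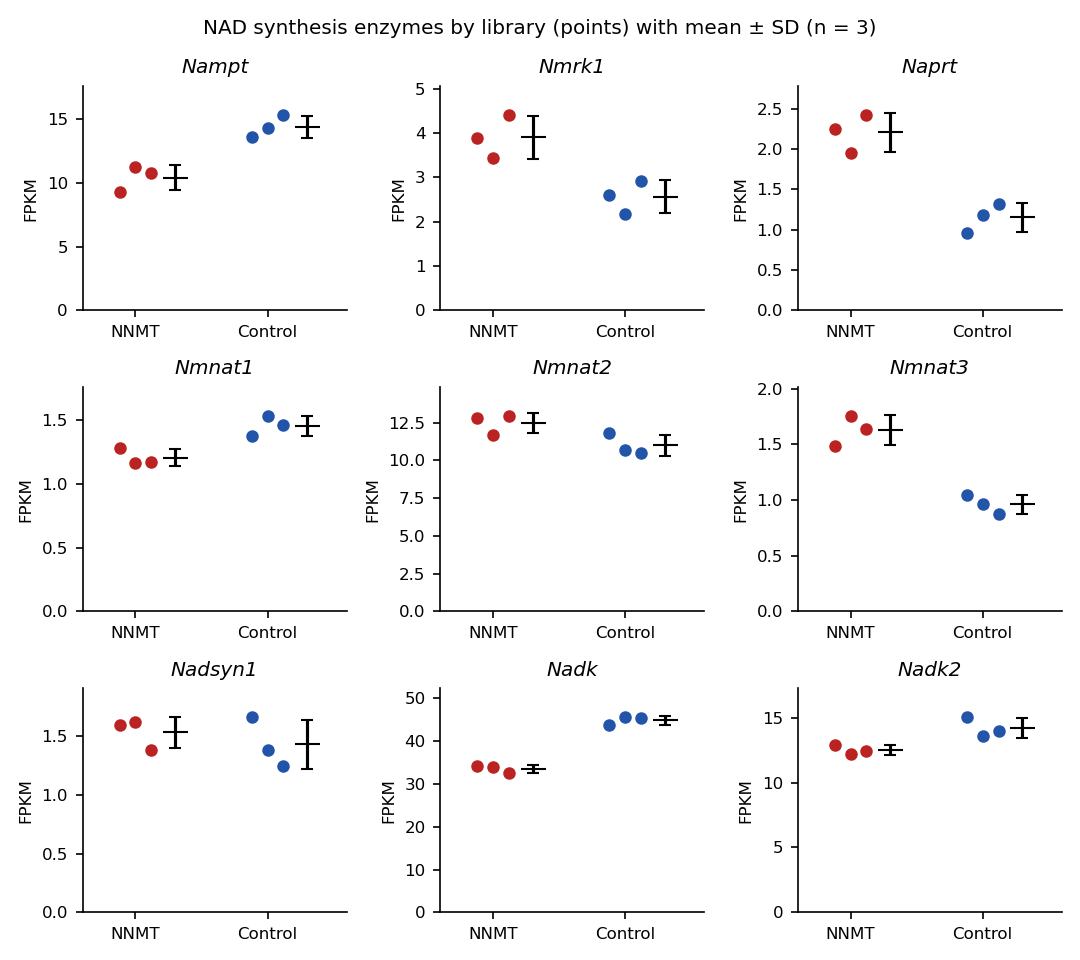
FPKM (vertical axes, from 0) of the 9 enzymes with reads in the 3 NNMT libraries (left, red) and the 3 control libraries (right, blue), with mean ± SD in black. Nampt and Nadk lie lower in every NNMT library than in any control library, Nmrk1, Naprt and Nmnat3 lie higher in every one, and Nadsyn1 and Nmnat2 overlap.

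The NMNAT isozymes, which turn the mononucleotide into NAD, were dominated by Nmnat2 (chromosome 1, 152954993 to 153119261), an isozyme best known from neurons, where it sustains axons. It stood at 12.8, 11.7 and 12.9 FPKM in the NNMT libraries and at 11.8, 10.7 and 10.5 FPKM in control replicates 1, 2 and 3. The groups overlapped, since NNMT replicate 2 lay below control replicate 1. The log2 fold change of 0.17 (SE 0.061) passed the threshold with a limma adjusted p of 0.0314, and the adjusted p was 0.103 without control replicate 2, 0.115 without control replicate 3, 0.0715 without the unnumbered NNMT library and 0.11 without NNMT replicate 3. The neuronal tubulin gene Tubb3 stood the other way, with 0.0709 ± 0.0493 FPKM in NNMT cells and 3.63 ± 0.167 FPKM in control cells. Over the 3 neural markers (Tubb3, Map2 and Sox10) the summed level was 0.0411 to 0.143 FPKM in NNMT libraries and 3.89 to 4.29 FPKM in control libraries, with Sox10 at 0 in NNMT libraries. Their part in the Nmnat2 level was not tested.

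Nmnat3 (chromosome 9, 98287435 to 98420438), an isozyme described as mitochondrial, was higher. The NNMT libraries held 1.49, 1.75 and 1.64 FPKM, against 1.04, 0.960 and 0.875 FPKM in control replicates 1, 2 and 3. No NNMT library came down to the level of a control library. Nmnat3 averaged 1.63 ± 0.132 FPKM in NNMT cells and 0.960 ± 0.0848 FPKM in control cells, a 1.69-fold difference (log2 fold change 0.42, SE 0.075, limma adjusted p = 0.000621) on 392 reads in NNMT cells and 218 in control cells. Its control mean lies under the 1 FPKM filter, so that it entered the test through the NNMT libraries. A processed pseudogene inside its span, Gm28530, was at 0.327 ± 0.0211 FPKM in NNMT cells and 0.872 ± 0.0925 FPKM in control cells, which is the opposite direction. It shares 577 bases with the span of Nmnat3 on the same strand. How reads in that stretch were counted is not known, and their part in the Nmnat3 value was not tested.

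Nmnat1 (chromosome 4, 149467572 to 149485202), the nuclear isozyme, had 1.28, 1.16 and 1.17 FPKM in the NNMT libraries and 1.37, 1.53 and 1.46 FPKM in control replicates 1, 2 and 3. The groups did not overlap, and the difference still did not pass the threshold (log2 fold change -0.16, 95% interval -0.31 to 0.00, limma adjusted p = 0.0733). With 358 reads in NNMT cells and 405 in control cells, counting error alone is near 9.15% per NNMT library and 8.61% per control library, more than the 5.40% spread seen among the controls. The ratio of Nmnat1 to Nmnat3 was 0.859, 0.663 and 0.714 in the NNMT libraries and 1.31, 1.59 and 1.67 in the control libraries. Nmnat1 was thus below Nmnat3 in each NNMT library and above it in each control library, with a log2 difference of -1.03. Here too the single levels, neither of which overlapped between the groups, fixed that the ratios do not overlap. Nmnat2 kept about the same share of the summed FPKM of the isozymes, 81.5 ± 1.23% in NNMT cells and 82.0 ± 0.989% in control cells. Nmnat3 made up 10.7 ± 1.24% in NNMT cells and 7.16 ± 0.292% in control cells, and Nmnat1 made up 7.87 ± 0.392% in NNMT cells and 10.9 ± 1.09% in control cells.

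**Figure D2:**
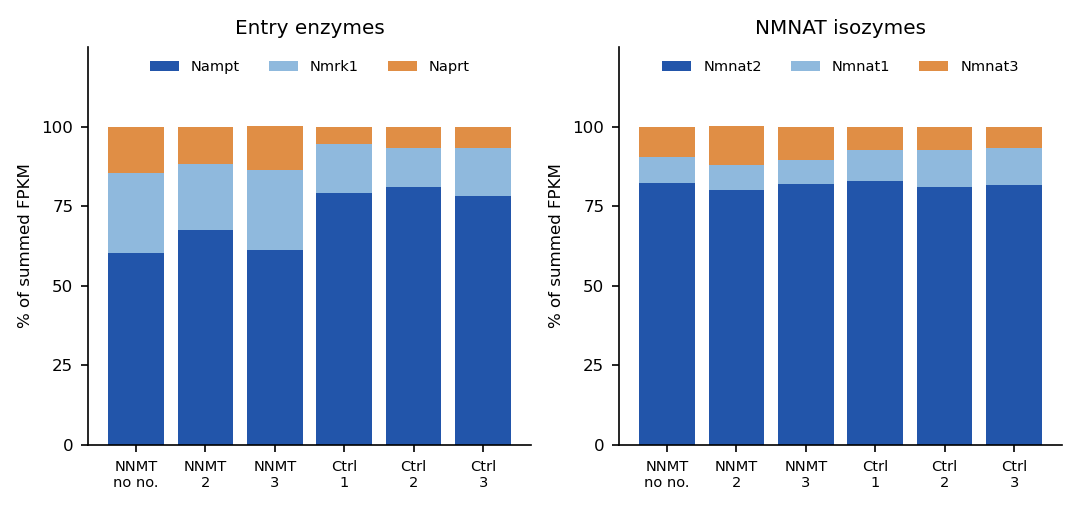
Percent of summed FPKM (vertical axes) held by each entry enzyme (left) and each NMNAT isozyme (right) in the NNMT libraries (the one without a number, then 2 and 3) and the control libraries 1 to 3. Nampt holds 60.4% to 67.6% of the entry enzymes in NNMT libraries and 78.3% to 80.9% in control libraries, while Nmnat2 holds 80.1% to 83.0% of the isozymes over all 6.

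Nadsyn1 (chromosome 7, 143795584 to 143822849), which amidates the acid dinucleotide as the last step from nicotinic acid or quinolinate, showed no difference beyond the spread. It had 1.59, 1.62 and 1.38 FPKM in the NNMT libraries and 1.66, 1.38 and 1.24 FPKM in control replicates 1, 2 and 3, so that all NNMT values lay within the range of the controls. The log2 fold change was 0.06 with a 95% interval from -0.13 to 0.25 (limma adjusted p = 0.542). The control libraries varied by 14.8%, more than the 8.71% that counting error gives at their depth, with 451 reads in NNMT cells and 395 in control cells.

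Nadk (chromosome 4, 155562378 to 155591001), the cytosolic kinase that makes NADP, was the most abundant of the 10 enzymes in both groups and had the smallest adjusted p. It stood at 34.1, 33.8 and 32.4 FPKM in the NNMT libraries and at 43.6, 45.5 and 45.4 FPKM in control replicates 1, 2 and 3. The gap between the groups was wider than the range within either. Nadk averaged 33.4 ± 0.902 FPKM in NNMT cells and 44.8 ± 1.06 FPKM in control cells, 1.34-fold lower (log2 fold change -0.41, SE 0.045, limma adjusted p = 2.12e-05), on 11772 reads in NNMT cells and 14796 in control cells.

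Nadk2 (chromosome 15, 9071260 to 9110891), the mitochondrial NAD kinase, was lower by less. It had 12.9, 12.2 and 12.5 FPKM in the NNMT libraries and 15.0, 13.6 and 13.9 FPKM in control replicates 1, 2 and 3, so that the groups did not overlap but came close. It was 1.13-fold lower (log2 fold change -0.17, SE 0.053, limma adjusted p = 0.0169), and the adjusted p was 0.0826 without control replicate 1, its highest library. Nadk exceeded Nadk2 by a factor of 2.64, 2.78 and 2.60 in the NNMT libraries and 2.90, 3.35 and 3.26 in the control libraries. The log2 difference of this ratio was -0.24 (exact two-sided permutation p = 0.1, and 0.1 adjusted over the 3 ratios computed, the smallest that 3 against 3 allows), with no overlap between the groups.

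Exact two-sided permutation tests over the 6 libraries gave p = 0.1 for the 7 of 9 enzymes whose groups did not overlap, the smallest p that 3 against 3 allows, p = 0.2 for Nmnat2 and p = 0.7 for Nadsyn1. Over all genes tested, 69.9% did not overlap. Ordered by level per length, NNMT cells had Nadk, Nadk2, Nmnat2, Nampt, Nmrk1, Naprt, Nmnat3, Nadsyn1 and Nmnat1. Control cells had Nadk, Nampt, Nadk2, Nmnat2, Nmrk1, Nmnat1, Nadsyn1, Naprt and Nmnat3. Neighbours in this order overlapped for Nadk2 with Nmnat2 and Nmnat3 with Nadsyn1 in NNMT cells. In control cells they overlapped for Nampt with Nadk2 and for each neighbouring pair from Nmnat1 down to Nmnat3. Nampt was above Nmnat2 in every control library and below it in every NNMT library.

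Some chromosome stretches differed as a whole between the groups, so each enzyme was set beside the tested genes within 5 Mb of it. Around Nadk, 36 of 57 neighbours were lower and 7 higher, beside 30.6% lower and 35.0% higher over all genes tested. Their median log2 fold change was -0.24, with quartiles at -0.40 and 0.03. The value of Nadk, -0.41, lay just below the lower quartile. Around Nmnat1, which lies on the same chromosome, 49 of 68 neighbours were lower, and their median of -0.32 was below the -0.16 of Nmnat1. The log2(FPKM + 1) scale shrinks the change of a gene as weakly expressed as Nmnat1. In the limma-voom fit on recovered reads its log2 fold change was -0.30, near that median, which was not computed in that fit. Around Nampt, 7 of 28 neighbours were higher and 7 lower, with a median of 0.00, while the median over the 372 other tested genes of chromosome 12 was -0.17. On chromosome 4 the corresponding median was -0.23 for Nadk, over 687 genes. Nadk2 and Nmnat2 moved against their surroundings, where the medians were 0.18 (32 genes) and -0.19 (39 genes). The medians were 0.13 around Naprt (103 genes), 0.16 around Nmnat3 (39 genes), -0.02 around Nmrk1 (20 genes) and 0.11 around Nadsyn1 (64 genes). Of these neighbours, 50 were higher and 10 lower for Naprt, 18 and 5 for Nmnat3, 4 and 6 for Nmrk1, and 31 and 8 for Nadsyn1. Over the other tested genes of the same chromosome, the median was 0.12 for Naprt and Nadk2 and 0.15 for Nmnat3 and Nmrk1. It was -0.02 for Nadsyn1 and -0.08 for Nmnat2. Whether the surroundings had a part in the values of these genes was not tested.

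**Figure D3:**
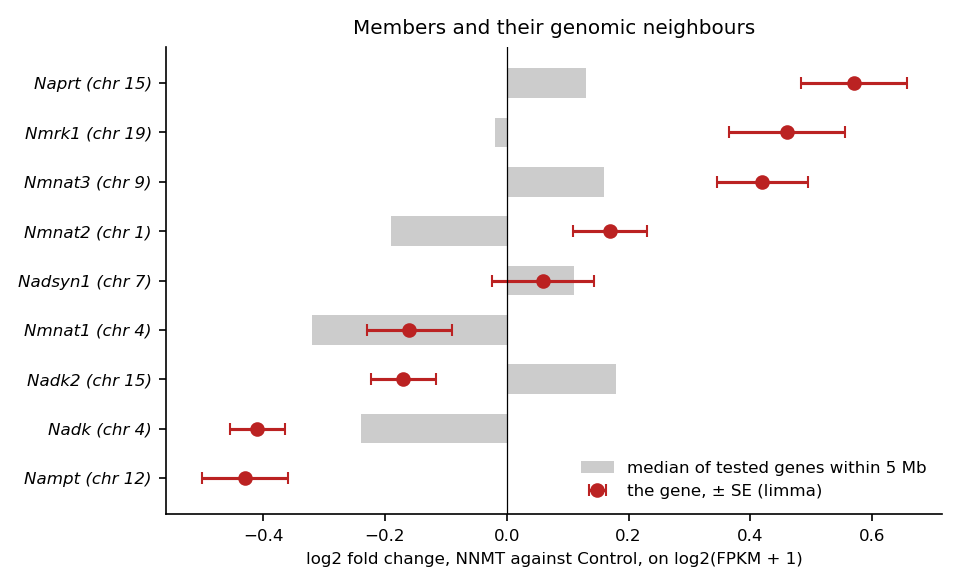
Log2 fold change, NNMT against control, on log2(FPKM + 1) (horizontal axis) of the 9 tested enzymes (red points, ± SE from limma) with the median of the tested genes within 5 Mb (grey bars). Nadk and Nmnat1, both on chromosome 4, have neighbours that were mostly lower (medians -0.24 and -0.32), while the median around Nampt was 0.00.

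The protein-coding genes whose centred log2 profile over the 6 libraries was closest to that of Nadk were Tmem234, Atad3a and Ppp1r15b, at root mean square distances of 0.0165, 0.0209 and 0.0262. Their log2 fold changes were -0.43, -0.41 and -0.38, beside -0.41 for Nadk. Tmem234 and Atad3a lie on chromosome 4 like Nadk, and Ppp1r15b lies on chromosome 1. Whether the shared chromosome had a part in this likeness was not tested. Tmem234 averaged 56.6 FPKM in NNMT cells and 76.5 FPKM in control cells.

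Of the 33 other genes of NAD metabolism examined by role, 18 reached the test, and 8 were higher, 3 were lower and 7 did not pass. Over all genes tested 65.6% were called, 35.0% higher and 30.6% lower, so that 11 called of 18 is near the background. The role groups below hold too few genes each for their counts to be judged against it. The median log2 fold change of the 18 was 0.12, against 0.03 over all genes tested. Nothing was called among the 8 genes that lead from tryptophan to quinolinate, since none reached a mean of 1 FPKM. Ido1, Ido2 and Kynu were listed at 0 in every library, Tdo2, Kmo, Haao and Acmsd had 1 to 14 reads per group, and Afmid, the formamidase, had 0.731 ± 0.0852 FPKM in NNMT cells and 0.840 ± 0.0634 FPKM in control cells. Apart from Nnmt, the clearance group held Aox1, an oxidase of methylnicotinamide, with 0.598 ± 0.0703 FPKM in NNMT cells and 0.504 ± 0.0501 FPKM in control cells, below the filter.

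Among 6 transport genes, 2 of 4 tested were higher and none lower, beside 35.0% higher and 30.6% lower over all genes tested. Slc29a1, the equilibrative nucleoside transporter ENT1, which also carries nicotinamide riboside, had 29.4, 28.3 and 29.9 FPKM in the NNMT libraries and 17.8, 19.1 and 19.0 FPKM in control replicates 1, 2 and 3. Its 1.56-fold rise (log2 fold change 0.62, SE 0.049, limma adjusted p = 2.16e-06) was in the same direction as that of Nmrk1, the kinase for the riboside. A link between these genes was not tested. Slc36a4, an amino acid transporter that carries tryptophan, was 1.14-fold higher (adjusted p = 0.0259), and its adjusted p reached 0.0715, 0.092, 0.0557 and 0.0728 without control replicate 1, control replicate 2, the unnumbered NNMT library and NNMT replicate 3. Slc29a2, a second nucleoside transporter, had a log2 fold change of 0.13 (adjusted p = 0.117).

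Of the 7 genes for NADP phosphatases, repair of damaged NAD(P)H, pyrophosphatases and transhydrogenase, 4 were higher and none was lower. The shares over all genes tested were 35.0% higher and 30.6% lower. Hddc3, whose human counterpart removes a phosphate from NADPH, had 11.6, 11.1 and 11.7 FPKM in the NNMT libraries and 8.44, 7.38 and 7.64 FPKM in the control libraries (1.47-fold, limma adjusted p = 3.44e-05). Nudt13, a Nudix pyrophosphatase that acts on NADH, averaged 3.48 ± 0.411 FPKM in NNMT cells and 2.19 ± 0.343 FPKM in control cells (1.59-fold, adjusted p = 0.00112). Naxe, the epimerase that repairs hydrated NAD(P)H, averaged 82.4 ± 5.17 FPKM in NNMT cells and 65.4 ± 3.85 FPKM in control cells (1.26-fold, adjusted p = 0.000771).

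Of 5 tested nucleotidases and extracellular pyrophosphatases, 3 were lower and 1 was higher, where 30.6% and 35.0% of all genes tested were. Enpp1, an ectoenzyme that cleaves extracellular nucleotides, averaged 7.94 ± 0.394 FPKM in NNMT cells and 10.2 ± 0.281 FPKM in control cells (1.28-fold lower, limma adjusted p = 0.000421). Nt5c3b, a nucleotidase, was 1.13-fold lower (adjusted p = 0.0107). Nt5c2, the purine nucleotidase of the cytosol, was 1.12-fold higher (adjusted p = 0.0192), and its adjusted p was 0.0743 without control replicate 1 and 0.0611 without NNMT replicate 3. The NAD hydrolases Cd38 and Bst1, which lie side by side on chromosome 5, were close to undetected and were not tested. Cd38 had 12, 9 and 10 reads in the NNMT libraries and 0, 1 and 1 in the control libraries, and Bst1 had 3, 3 and 5 reads in the NNMT libraries and 0 in each control library. Sarm1, the hydrolase that opposes Nmnat2 in axons, had 2.01 ± 0.0862 FPKM in NNMT cells and 1.90 ± 0.0723 FPKM in control cells (log2 fold change 0.06, limma adjusted p = 0.476).

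**Figure D4:**
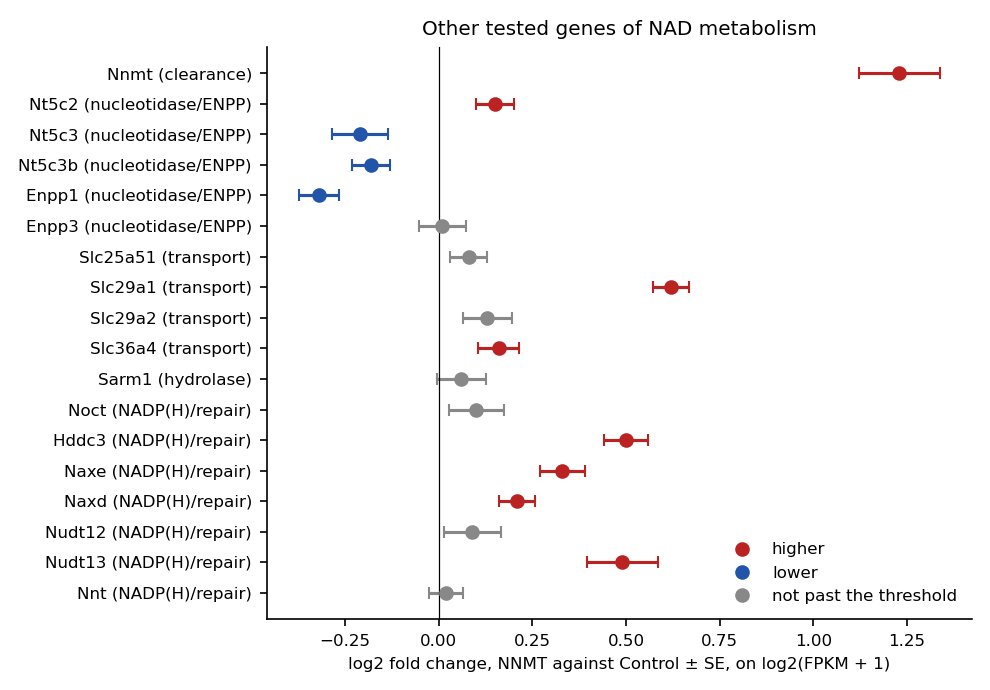
Log2 fold change ± SE, NNMT against control, on log2(FPKM + 1) (horizontal axis) of the 18 tested genes of NAD metabolism outside the 10 enzymes, with higher calls in red, lower calls in blue and the rest in grey. Nnmt (1.23) and Slc29a1 (0.62) lie furthest to the right and Enpp1 (-0.32) furthest to the left.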

How the data were processed

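Per the labels, total RNA was purified on Qiagen columns and made into NEB libraries. CASAVA, STAR 2.5 and build mm10 appear in the submitters' processing notes, and the sources used here name no counter, annotation or strand setting. A single table was deposited by the authors with no stated unit, and is read here as FPKM, since values of a gene are whole multiples of a step. Of the 20528 genes above 0, 14597 gave whole reads at the length of the longest GENCODE M21 transcript (tolerance 0.01 read). For the rest, a search took the shortest length that gave whole reads. With few reads some length nearly always fits, so such genes say little about the unit. GENCODE M21 (GRCm38) gave symbols and coordinates. The NNMT column without a number was used as a library of its group. The fit was made in R 4.3.3 by limma 3.58.1 (trend, robust moderation, two-sided) on log2(FPKM + 1) for genes averaging 1 FPKM or more, since the values are not counts. The script was tested on simulated data as a check of the code. Far fewer genes were changed there than were called here, so that test gives no error rate for these data. Folds are given where each group had at least 10 reads. The members and lists were chosen with earlier results of these data known. All 10 members were named, and from each role group up to 3 tested genes with the smallest adjusted p, with the other genes named as counts or after their values were seen. Libraries of a group differed by 6.35 to 23.88 chi-square per degree of freedom on recovered reads, so none was taken for a copy.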

Additional observations from a re-analysis of the deposited data

How the results depend on the processing

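Nampt, Nadk, Naprt, Nmnat3 and Nmrk1 kept direction and call in all 16 alternatives (15 for the last 3, which the 5 FPKM filter removes), with log2 fold changes from -0.50 to -0.26, -0.45 to -0.34, 0.13 to 0.91, 0.09 to 0.72 and 0.15 to 0.59. With that filter 1 enzyme was called higher, because fewer were tested. Nmnat2 missed the threshold with no filter (0.17, adjusted p = 0.0696), quantile normalization (0.14, adjusted p = 0.0521) and median of ratios scaling (0.14, adjusted p = 0.0622), and ranged from 0.14 to 0.22 over fits without 1 library. Nmnat1 passed under quantile normalization (-0.23, adjusted p = 0.0191) and limma without trend (-0.16, adjusted p = 0.0236). Nadk2 ranged from -0.20 to -0.13 over fits without 1 library. Nadsyn1 and Sarm1 turned to -0.01 under quantile normalization, and neither was called. Nt5c2 missed the threshold there too (adjusted p = 0.0552). The cause of these changes was not tested. Without 1 library, 3 or 4 enzymes were higher and 2 or 3 lower. The log2 ratios, an alternative added after seeing the data, ranged from 1.31 to 1.55 (Naprt to Nampt), -1.14 to -0.95 (Nmnat1 to Nmnat3) and -0.31 to -0.20 (Nadk to Nadk2). Replicate numbers 2 and 3 occur in both groups. Deviations of same-numbered libraries correlated at 0.212 and 0.11, and nothing in the labels pairs them. A replicate block over these 4 libraries called 4 enzymes higher and 3 lower, 7109 genes in all against 7140, and lost Slc36a4 (adjusted p = 0.111).
Levels near 1 FPKM rest on 60 to 170 reads per library, which limits what can be seen for Naprt, Nmnat1, Nmnat3 and Nadsyn1. The limit given for Qprt covers counting error only, the 95% intervals of limma cover the spread between these libraries, and the unit is inferred.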
